A study of Homo sapiens with 9 samples.

Results

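Axon guidance ligands and receptors are the secreted and membrane proteins that steer growing axons, and 66 genes of these families were measured by RNA sequencing in SKMEL-147 human melanoma cells in which the histone demethylase PHF8 was targeted with CRISPR-Cas9. The 66 genes were taken by symbol from the 57736 rows of the expression table: the class 3 semaphorins (7 genes) and the membrane semaphorins of classes 4 to 7 (13), the plexins (9) and neuropilins (2), the ephrins (7), the Eph receptors (14), the SLIT ligands (3) and ROBO receptors (4), and the netrins NTN1 and NTN4 with the receptors DCC and UNC5A to UNC5D (7). Antisense genes were left out.

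Pools of cells of 3 kinds were compared, with 3 libraries each: cells with a scrambled guide RNA (sgScr), cells with the first PHF8 guide (sgPHF8-1) and cells with another PHF8 guide (sgPHF8-3). All 9 came from the same Cas9-carrying line, received their guide by lentivirus and were not described as clones, so each pool can hold a mixture of edited and unedited cells. The methods name 3 biological replicates per guide. In such bulk samples, fewer cells of a type and less RNA per cell cannot be told apart.

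The families work in pairs of ligand and receptor. Class 3 semaphorins are secreted and bind neuropilins, which pass the signal on through plexins; most membrane semaphorins bind plexins directly, and plexins act on small GTPases and the actin cytoskeleton. Ephrins are themselves anchored in the membrane and signal at contact with a neighbouring cell that carries an Eph receptor tyrosine kinase. SLIT proteins repel cells through ROBO receptors, and netrins attract or repel through DCC and UNC5 receptors. Melanocytes descend from the neural crest, whose migration uses the same families, and several members are known from tumor cell migration and from blood vessel growth.

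The libraries held between 17366120 and 19838142 counts, and between 22427 and 23229 genes had at least 1 count. The library sgPHF8-1 B had the fewest genes detected and lay apart from the others of its guide on the second principal component, and the calls that change when it is left out are given with the counts. PHF8 itself had 655, 606 and 634 normalized read counts in the sgScr libraries A, B and C, 564, 571 and 565 with sgPHF8-1, and 400, 387 and 434 with sgPHF8-3. Its mRNA fell by 10.3% with sgPHF8-1 (adjusted p = 0.0272) and fell by 35.6% with sgPHF8-3 (adjusted p = 6.36e-09), and it differed between the guides (adjusted p = 3.86e-06). Editing acts on the gene and need not remove its mRNA, so these values do not measure the protein. Of 10 melanocyte lineage markers, SOX10 (mean 2771 in sgScr) and MITF (253) were well detected, while the pigment genes MLANA and TYR were at 0 in every library and the summed list spanned 3003 to 3149 in sgScr, 2654 to 2807 with sgPHF8-1 and 2871 to 2917 with sgPHF8-3. SOX10 fell with both guides (log2 fold changes of -0.18 and -0.11), and the secreted melanoma marker MIA stood at -1.02 with sgPHF8-1, which passed (adjusted p = 0.00911), and -0.76 with sgPHF8-3, which did not. The others tested, MITF (-0.144 with sgPHF8-1 and 0.139 with sgPHF8-3) and EDNRB (0.345 and 0.253), did not pass against sgScr. Markers of endothelial cells summed to at most 12.7 and those of leukocytes to at most 38.2 in any library, against 342 to 371 for keratinocyte markers and 385 to 428 for fibroblast markers with sgPHF8-1. These were mostly KRT10 (mean 337) and LUM (310). KRT14, another keratin, fell with both guides, from a mean of 40 normalized counts in sgScr to 18.8 and 21.4 (log2 fold changes of -1.10 and -0.90, adjusted p = 0.00129 and 0.0092), and LUM fell with sgPHF8-3 (-0.25). In sgScr the keratinocyte list summed to 354 to 359 and the fibroblast list to 361 to 407, and with sgPHF8-3 they summed to 334 to 376 and 310 to 355. The 5 neuronal markers found summed to 920 to 930 in sgScr, 851 to 858 with sgPHF8-1 and 919 to 967 with sgPHF8-3, and most of this was the synaptic gene SYT1 (mean 768 in sgScr), which fell with sgPHF8-1 (-0.13). The part of these marker differences in the results that follow was not tested.

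SKMEL-147 cells had reads of ligands and receptors of every family. The netrin receptors were low, with DCC the highest at a mean of 29.4 normalized counts in sgScr. To compare genes with each other, normalized read counts were divided by the length of the merged exons, so the levels in this paragraph are normalized counts per kb in sgScr. The highest was EPHA2, an Eph receptor kinase, at 1270 ± 18.7 (SD, n = 3), which made up 93.1% of the summed EphA level. NRP1 followed at 976 ± 14.5 and NRP2, the other neuropilin, had rank 5 at 486 ± 9.84. Between them stood SEMA7A, a semaphorin anchored by a lipid, at 526 ± 2.30 and SEMA3C at 503 ± 5.46. PLXNB2 (453 ± 8.52) and PLXNA1 (317 ± 12.5) together held most of the plexin level, at 45.8% and 32.0% of the sum. EFNB2 led the ephrins at 228 ± 4.54, NTN4 was almost the whole netrin level at 170 ± 4.20, and ROBO1 led its family at 128 ± 2.63. The 3 libraries of each gene from EPHA2 down to PLXNB1, the 14 highest, did not overlap with those of the next gene in this order. Below that point most neighbours overlapped, as EPHB4 (92.8 ± 8.34) did with EFNA5 (84.6 ± 2.06).

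**Figure D1:**
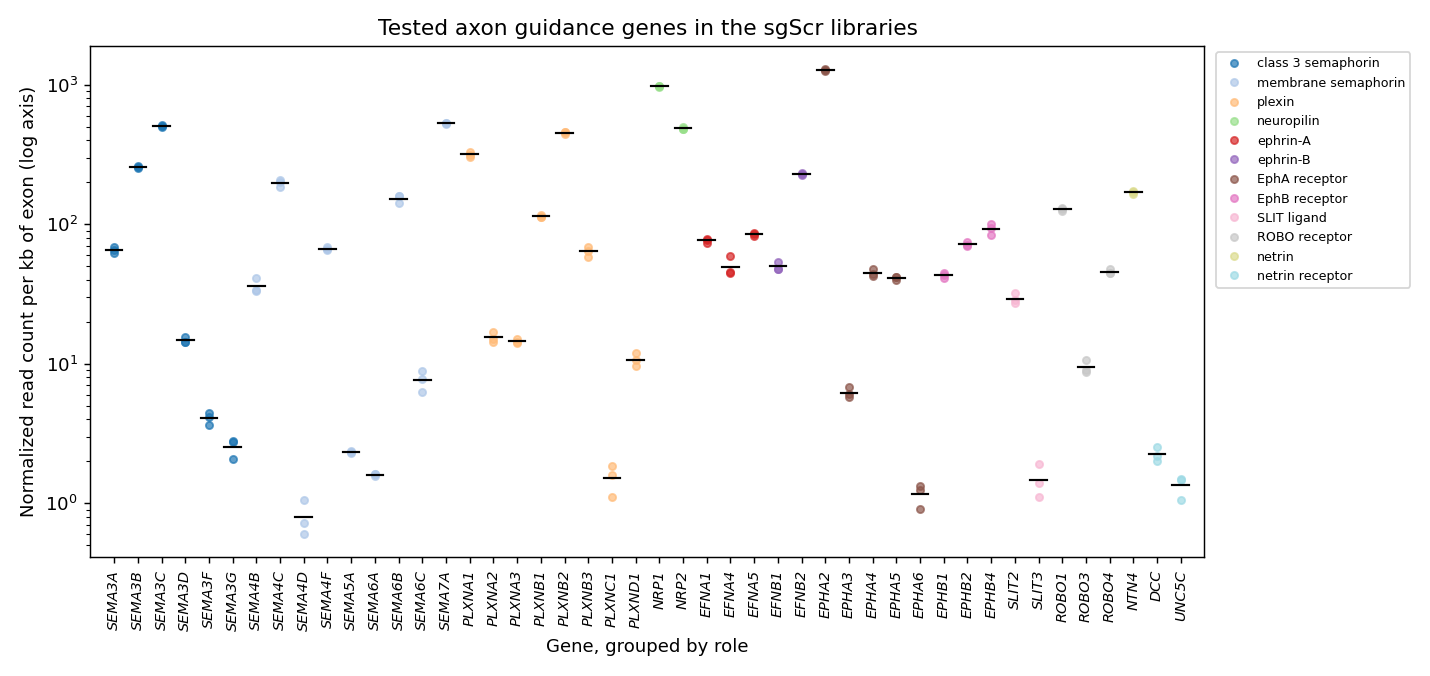
Normalized read count per kb of exon (log axis) in the 3 sgScr libraries for the 46 tested genes, grouped and coloured by role, with points for libraries and a line at each mean. EPHA2 sits highest at 1270, NRP1 next at 976, and the DCC, UNC5C, SLIT3 and PLXNC1 points lie near or below the level of 2.5.

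Of the 66 genes, 46 had enough reads to be tested and 20 did not. The 20 were SEMA3E, SEMA4A, SEMA4G, SEMA5B, SEMA6D, PLXNA4, EFNA2, EFNB3, EPHA1, EPHA7, EPHA8, EPHA10, EPHB3, EPHB6, SLIT1, ROBO2, NTN1, UNC5A, UNC5B and UNC5D, 9 ligands and 11 receptors. The highest value of any of them in a library was 12.8 normalized counts. SEMA5B, EPHA8, EPHA10 and SLIT1 had 0 reads in all libraries, which allows up to 3 counts per library by counting error alone. UNC5C passed through the sgScr group only, with 3 libraries over the minimum there and none with either guide, so a gene like it could enter the test only by being high in sgScr.

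With sgPHF8-1, 17 of the 46 tested genes were lower than in sgScr and 3 were higher at an adjusted p under 0.05, while 26 did not pass. Among all 14614 genes tested, 15.7% were called lower and 15.2% higher in that comparison, so the members' share of lower calls was above that of all genes and their share of higher calls below it. The families were picked with earlier results of these data known, so these shares are a description. UNC5C, which entered only by being high in sgScr, is among the 17, and without it 16 of 45 were lower. With sgPHF8-3, 15 members were lower, 1 was higher and 30 did not pass, where 9.78% of all genes were called lower and 9.48% higher, and without UNC5C 14 of 45 were lower. The median log2 fold change of the tested members was -0.14 with sgPHF8-1 and -0.08 with sgPHF8-3, and that of all genes was 0.0003 and -0.0008. Both comparisons share the sgScr libraries, so their values are given side by side and are not independent of each other. Without sgPHF8-1 B the first comparison gave 14 lower and 3 higher (SEMA3C, SEMA7A and EFNB3). The log2 fold changes of the 20 called members moved by at most 0.27, for UNC5C, and next by 0.10, for PLXNA3, to -0.18. PLXNA3, SEMA4F, SEMA6C and SEMA5A then lost their calls. EFNB3 was not tested with all libraries, and here it entered only by being high in sgPHF8-1 A and C (12.8 and 12.4 normalized counts). Its log2 fold change of 1.15 is thus a description and not a test. In the comparison of sgPHF8-3 with sgScr, 16 members were then lower, with EFNA4 (-0.48, adjusted p = 0.04) added. Without sgScr B the comparison of sgPHF8-1 with sgScr gave 11 lower and 2 higher, and without sgScr A, sgScr B, sgPHF8-3 A or sgPHF8-3 B that of sgPHF8-3 gave none higher.

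**Figure D2:**
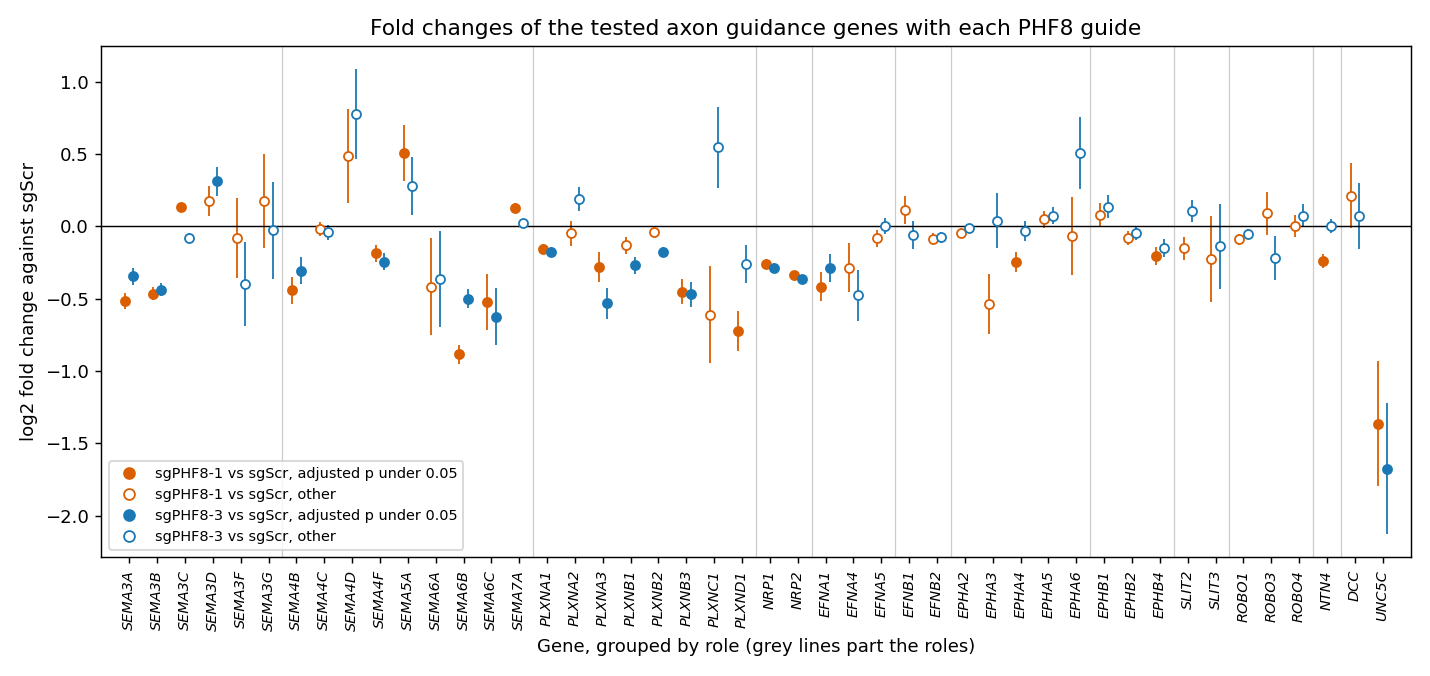
Log2 fold change against sgScr (y axis) of the 46 tested genes by role, for sgPHF8-1 in orange and sgPHF8-3 in blue, with bars of 1 SE and filled points at an adjusted p under 0.05. Most filled points are below 0 and lie among the semaphorins, plexins and neuropilins, the lowest are those of UNC5C at -1.37 and -1.68, and the filled points above 0 are SEMA3C, SEMA5A and SEMA7A in orange and SEMA3D in blue.

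In the semaphorin, plexin and neuropilin group 25 of 31 genes were tested. With sgPHF8-1, 12 of these were lower and 3 higher, against 15.7% and 15.2% of all genes, and with sgPHF8-3, 13 were lower and 1 higher, against 9.78% and 9.48%. Without sgPHF8-1 B the first pair of counts was 9 lower and 2 higher and the second did not change. The Eph receptors had 2 lower of 8 tested with sgPHF8-1 and 0 with sgPHF8-3, the ephrins 1 lower of 5 in each comparison, and SLIT and ROBO genes 0 of 5 in each. With so few genes tested in each, these counts lie near the same shares of all genes and are no result about the families. At an unadjusted p under 0.05, edgeR counted 1 lower Eph receptor with sgPHF8-3 and 1 lower SLIT or ROBO gene with sgPHF8-1 and 0 with sgPHF8-3, and DESeq2 called 0 in each of these. At that level 19.9% of all genes were lower and 19.9% higher with sgPHF8-1, and 15.8% lower and 15.9% higher with sgPHF8-3. Whether one family differed from another was not tested.

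Among the class 3 semaphorins, SEMA3A and SEMA3B fell with both guides. SEMA3A, a repellent that collapses growth cones, lies on chromosome 7 (83585093 to 84122040, minus strand, GRCh37). It had 637, 577 and 605 normalized read counts in sgScr A, B and C, 400, 454 and 420 with sgPHF8-1, and 473, 489 and 470 with sgPHF8-3. All 6 PHF8-guide libraries lay below all 3 sgScr libraries. Its log2 fold change was -0.52 ± 0.058 (SE) with sgPHF8-1 (adjusted p = 1.35e-07) and -0.34 ± 0.057 with sgPHF8-3 (adjusted p = 8.35e-05). It thus fell by 30.1% with sgPHF8-1 and fell by 21.3% with sgPHF8-3.

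SEMA3B, which binds the neuropilins and is known as a candidate tumor suppressor, lies on chromosome 3 (50304990 to 50314977, plus strand, GRCh37). It had 1462, 1514 and 1475 normalized counts in sgScr, 1114, 997 and 1111 with sgPHF8-1, and 1057, 1115 and 1117 with sgPHF8-3. The groups with a PHF8 guide overlapped each other and both stood clear of sgScr. Its log2 fold change was -0.46 ± 0.043 (adjusted p = 3.77e-09) and -0.44 ± 0.043 (adjusted p = 2.68e-08). The neighbour SEMA3F, 78.5 kb away on the same strand, was low, with 17.7 to 21.5 normalized counts in sgScr, 16.8 to 19.6 with sgPHF8-1 and 8.5 to 20.6 with sgPHF8-3, and passed in no comparison.

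SEMA3C, the most abundant of the class per kb, rose with sgPHF8-1. It had 3058, 3109 and 3046 normalized counts in sgScr, 3344, 3403 and 3351 with sgPHF8-1, and 2875, 2898 and 2961 with sgPHF8-3. No group overlapped another, with sgPHF8-1 highest and sgPHF8-3 lowest. The rise of 9.6% with sgPHF8-1 passed (log2 fold change 0.13 ± 0.030, adjusted p = 0.00144), and the value with sgPHF8-3 was -0.08 ± 0.031 (adjusted p = 0.0784). SEMA3D rose with sgPHF8-3 by 0.31 on the log2 scale (adjusted p = 0.0333, and up to 0.188 over the alternatives) and stood at 0.18 with sgPHF8-1, where it did not pass. On chromosome 7 the untested SEMA3E, SEMA3A and SEMA3D follow each other, at 307 and 503 kb, and the tested neighbours SEMA3A and SEMA3D had log2 fold changes of opposite sign in both comparisons. SEMA3G did not pass anywhere.

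SEMA6B gave the largest fall among the well-detected ligands. It is a transmembrane semaphorin that binds class A plexins and lies on chromosome 19 (4542605 to 4581788, minus strand, GRCh37). Its normalized read counts were 664, 744 and 749 in sgScr, 338, 420 and 412 with sgPHF8-1, and 527, 489 and 510 with sgPHF8-3. The 3 groups did not overlap, and sgPHF8-1 was lowest. The log2 fold change was -0.89 ± 0.067 with sgPHF8-1 (adjusted p = 1.03e-10) and -0.50 ± 0.064 with sgPHF8-3 (adjusted p = 2.39e-06). The level fell by 45.9% with sgPHF8-1 and fell by 29.3% with sgPHF8-3.

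SEMA6C, the next member of the same class, lies on chromosome 1 (151104161 to 151119107, minus strand, GRCh37) and was low. It had 44.6, 51.5 and 36.1 normalized counts in sgScr, 34.6, 29.2 and 27.9 with sgPHF8-1, and 28.4, 29.7 and 27.5 with sgPHF8-3. The lowest sgScr library was just above the highest sgPHF8-1 library. The log2 fold changes were -0.52 ± 0.20 (adjusted p = 0.043) and -0.63 ± 0.20 (adjusted p = 0.0268). The call with sgPHF8-1 was lost without sgScr A, sgScr B, sgPHF8-1 B, sgPHF8-1 C or sgPHF8-3 B, and that with sgPHF8-3 without sgScr A, sgScr B or any one sgPHF8-3 library, with an adjusted p of at most 0.206 and 0.151 over the alternatives.

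SEMA5A, a semaphorin with thrombospondin repeats on chromosome 5 (9035145 to 9546187, minus strand, GRCh37), had the largest rise among the members that passed. It had 28.8, 28.1 and 29.4 normalized counts in sgScr, 45.5, 41.1 and 36.2 with sgPHF8-1, and 39.2, 35.9 and 29.6 with sgPHF8-3. Both guide groups lay above sgScr, though the lowest sgPHF8-3 library was just above the highest sgScr library. The log2 fold change was 0.51 ± 0.20 with sgPHF8-1 (adjusted p = 0.0499) and 0.28 ± 0.20 with sgPHF8-3 (adjusted p = 0.364). The first sits at the threshold and was lost under 14 of 16 alternatives, up to an adjusted p of 0.209, and when any single library except sgPHF8-1 C was left out.

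SEMA4B and SEMA4F, transmembrane semaphorins of class 4, fell with both guides. SEMA4B had a log2 fold change of -0.44 and -0.31 with sgPHF8-1 and sgPHF8-3, and SEMA4F of -0.19 and -0.24, and all 4 values passed. SEMA7A, which signals through an integrin and PLXNC1, rose by 0.13 on the log2 scale with sgPHF8-1 (adjusted p = 0.00306) and stood at 0.02 with sgPHF8-3. SEMA4C, the most abundant without a call, stood at -0.02 and -0.04. The call for SEMA4F with sgPHF8-1 was lost without sgScr A, sgScr B, sgPHF8-1 A or sgPHF8-1 B (adjusted p up to 0.112), and that for SEMA4B with sgPHF8-3 without sgScr B or sgPHF8-3 C (up to 0.182). SEMA4D, at a mean of 11.2 normalized counts in sgScr, 15.9 with sgPHF8-1 and 19.3 with sgPHF8-3, stood at 0.49 and 0.78 and did not pass (adjusted p = 0.282 and 0.082), and SEMA6A stood at -0.42 and -0.36 and did not pass.

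Both neuropilins, the receptors that class 3 semaphorins and some forms of VEGF bind, fell with both guides. NRP1, on chromosome 10 (33466420 to 33625190, minus strand, GRCh37), had 11054, 11345 and 11343 normalized read counts in sgScr, 9351, 9355 and 9515 with sgPHF8-1, and 9028, 9451 and 9228 with sgPHF8-3. The sgScr libraries were above all others, and the guide groups overlapped. Its log2 fold change was -0.26 ± 0.029 (adjusted p = 9.77e-08) and -0.28 ± 0.029 (adjusted p = 4.83e-08). NRP1 fell by 16.4% with sgPHF8-1 and fell by 17.9% with sgPHF8-3.

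NRP2, on chromosome 2 (206546714 to 206662857, plus strand, GRCh37), had 6664, 6910 and 6685 normalized counts in sgScr, 5275, 5379 and 5397 with sgPHF8-1, and 5231, 5283 and 5212 with sgPHF8-3. These groups were again separate from sgScr and overlapped each other. The log2 fold change was -0.34 ± 0.029 (adjusted p = 1.19e-09) and -0.37 ± 0.029 (adjusted p = 8.78e-10). Between the guides the difference was 0.03 for each neuropilin, with a 95% interval of -0.03 to 0.09. Every alternative analysis kept the calls of both neuropilins against sgScr.

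**Figure D3:**
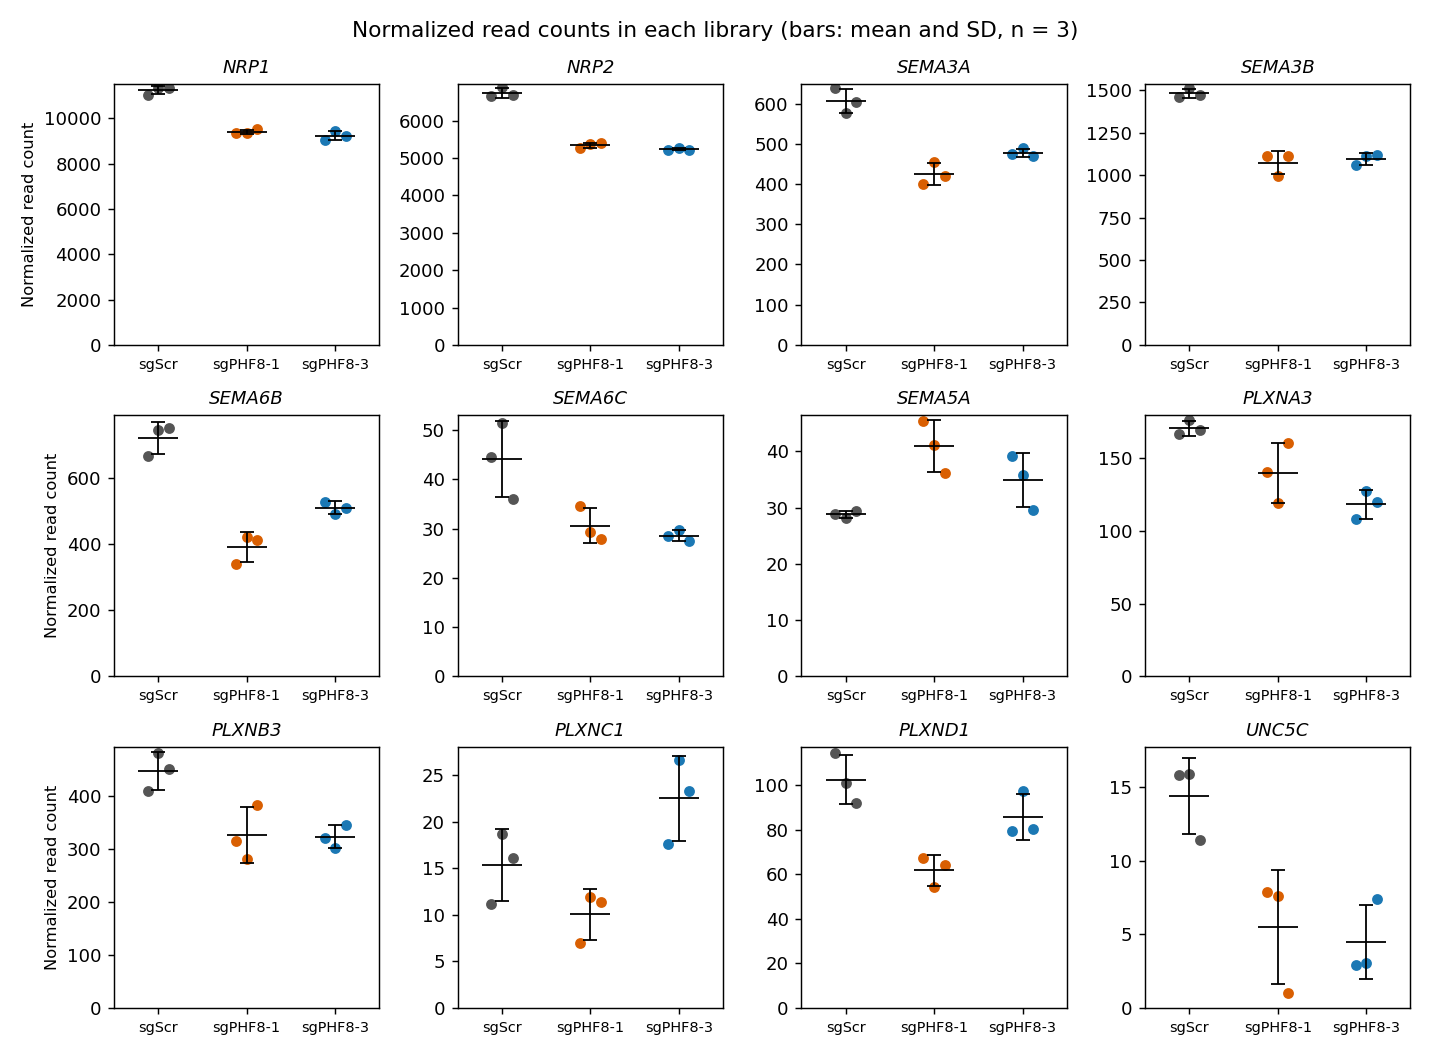
Normalized read counts (y axes from 0) of 12 genes in the 3 libraries of each group, with black bars for the mean and SD (n = 3). NRP1, NRP2, SEMA3A, SEMA3B and SEMA6B are lower with both PHF8 guides, SEMA5A is higher with sgPHF8-1, and PLXNC1 is lowest with sgPHF8-1 and highest with sgPHF8-3.

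Of the 8 plexins tested, 4 were lower with sgPHF8-1 and 5 with sgPHF8-3, and 0 were higher by edgeR or DESeq2, with 0 and 1 higher at an unadjusted p under 0.05 (19.9% and 15.9% of all genes). At the adjusted threshold 15.7% and 9.78% of all genes were lower and 15.2% and 9.48% higher, so 0 of 8 higher is near the background. PLXNA3, the class A plexin on the X chromosome (153686621 to 153706118, plus strand, GRCh37), had 166, 176 and 169 normalized counts in sgScr, 140, 119 and 160 with sgPHF8-1, and 108, 127 and 119 with sgPHF8-3. The lowest sgScr library was above every library with a PHF8 guide. Its log2 fold change was -0.28 ± 0.10 (adjusted p = 0.0409) and -0.53 ± 0.11 (adjusted p = 0.000892). The call with sgPHF8-1 was lost without any single sgScr library and without sgPHF8-1 A or B (adjusted p up to 0.228).

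PLXNB3, 642 kb away on the X chromosome (153029651 to 153044801, plus strand, GRCh37), had 410, 480 and 451 normalized counts in sgScr, 315, 280 and 383 with sgPHF8-1, and 320, 302 and 346 with sgPHF8-3. Again the groups did not overlap with sgScr. The log2 fold changes were -0.45 ± 0.085 (adjusted p = 0.000166) and -0.47 ± 0.085 (adjusted p = 0.000234). Its exons share 1432 bases with SRPK3 on the same strand, a gene that itself had only 33 counts over the 9 libraries against 3327 for PLXNB3, so reads in the shared part could have been assigned to either or to neither.

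PLXND1, the receptor of SEMA3E in blood vessels, lies on chromosome 3 (129274057 to 129325519, minus strand, GRCh37). It had 114, 101 and 92.1 normalized counts in sgScr, 67.2, 54.1 and 64.1 with sgPHF8-1, and 79.4, 97.4 and 80.3 with sgPHF8-3. The sgPHF8-1 libraries were below all others, while sgPHF8-3 and sgScr overlapped. The log2 fold change was -0.73 ± 0.14 with sgPHF8-1 (adjusted p = 0.000219) and -0.26 ± 0.13 with sgPHF8-3 (adjusted p = 0.169).

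PLXNC1, the plexin that binds SEMA7A, lies on chromosome 12 (94542353 to 94701451, plus strand, GRCh37) and was near the detection limit. It had 11.2, 18.7 and 16.1 normalized counts in sgScr, 6.92, 11.9 and 11.4 with sgPHF8-1, and 17.6, 26.6 and 23.3 with sgPHF8-3. Both guide groups overlapped sgScr but not each other. Against sgScr the log2 fold changes of -0.61 ± 0.34 (adjusted p = 0.181) and 0.55 ± 0.28 (adjusted p = 0.18) did not pass. Its exons overlap CEP83 on the opposite strand over 177 bases and an unnamed noncoding gene over 222, with 4237 and 142 counts against 144 for PLXNC1, and the strand setting of the counting is not given in the sources used here.

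The abundant plexins changed by small amounts. PLXNA1 fell by 0.16 and 0.18 on the log2 scale with sgPHF8-1 and sgPHF8-3. PLXNB1 was -0.13 with sgPHF8-1, which did not pass, and -0.27 with sgPHF8-3, which did, and PLXNB2, the most abundant plexin per kb, was -0.04 and -0.18 with the same outcome. PLXNA2, the most abundant without a call, stood at -0.05 and 0.19.

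The promoters shown next belong to 3 receptor genes that fell with both guides, NRP2, PLXNA1 and PLXNB3. Each has 1 entry in the RefSeq promoter table (GRCh38.p14), and the 250 bases before the start of each are shown so that the letters around the start can be read beside the fold changes. Entries were matched for 57 of the 66 genes, and none for SEMA3A, SEMA6A, SEMA6B, NRP1, EFNB3, EPHA10, NTN1, UNC5B and UNC5D. The windows run 5′ to 3′ on the plus strand at chr2:205682251-205682500, chr3:126982865-126983114 and chrX:153763999-153764248, and capitals mark GC boxes, GGGCGG on either strand, where neighbouring boxes can share letters.
NRP2: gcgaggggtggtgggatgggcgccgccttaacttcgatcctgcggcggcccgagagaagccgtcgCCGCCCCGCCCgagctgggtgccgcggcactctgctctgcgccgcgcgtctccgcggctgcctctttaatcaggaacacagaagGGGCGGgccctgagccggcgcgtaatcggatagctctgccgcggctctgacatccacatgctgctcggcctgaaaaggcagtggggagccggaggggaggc
PLXNA1: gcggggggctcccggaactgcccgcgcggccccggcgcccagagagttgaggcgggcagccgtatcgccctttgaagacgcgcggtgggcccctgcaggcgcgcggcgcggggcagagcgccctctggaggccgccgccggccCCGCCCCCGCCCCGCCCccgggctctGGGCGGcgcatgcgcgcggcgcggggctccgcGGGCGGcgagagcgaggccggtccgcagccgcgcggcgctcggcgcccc
PLXNB3: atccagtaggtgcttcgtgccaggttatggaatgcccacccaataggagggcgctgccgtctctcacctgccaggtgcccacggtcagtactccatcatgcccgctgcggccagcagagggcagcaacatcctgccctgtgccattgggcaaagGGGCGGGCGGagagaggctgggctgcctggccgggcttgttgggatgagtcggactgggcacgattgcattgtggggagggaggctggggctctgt
The windows held 3, 5 and 2 GC boxes and 29, 46 and 11 CpG dinucleotides. Across the 89 entries of the members 69.7% held a GC box, against 42.6% of 35116 entries in all, and the median number of CpG dinucleotides was 17 against 11. None of the 3 windows held the AP-1 site TGACTCA, the SMAD box CAGAC or the E-box CACGTG on either strand, and 0.0%, 34.8% and 4.49% of the members' entries did, against 4.20%, 38.0% and 6.34% of all. A match is a run of letters and not a measured site.

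Among the ephrins and Eph receptors, few values passed. EFNA1, a ligand of EPHA2, had log2 fold changes of -0.42 with sgPHF8-1 and -0.29 with sgPHF8-3, both of which passed, the second not without any one sgScr library, sgPHF8-3 B or sgPHF8-3 C (adjusted p up to 0.172). EFNA5, the most abundant ephrin-A without a call, stood at -0.08 and 0.00. EFNB2, a ligand of EPHB4 known from arteries, stood at -0.09 and -0.07. EFNA4 and EFNB1 did not pass.

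EPHA2, the most abundant member in these cells per kb, had 5190, 5338 and 5226 normalized counts in sgScr, 5038, 5044 and 5185 with sgPHF8-1, and 5214, 5199 and 5186 with sgPHF8-3. The sgPHF8-1 libraries lay below those of sgScr by a narrow margin and the sgPHF8-3 libraries overlapped them. Its log2 fold change was -0.05, with a 95% interval of -0.11 to 0.02, with sgPHF8-1 and -0.01, with an interval of -0.08 to 0.05, with sgPHF8-3. EPHA4, a receptor for both ephrin classes, was -0.25 with sgPHF8-1, which passed, and -0.03 with sgPHF8-3. EPHB4, the receptor of EFNB2, was -0.21 and -0.15, of which the first passed. Both of these sgPHF8-1 calls were lost without sgScr B (adjusted p up to 0.0663 for EPHA4 and 0.131 for EPHB4). EPHB2, the most abundant EphB without a call, stood at -0.08 and -0.05, and EPHA3, EPHA5, EPHA6 and EPHB1 did not pass.

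SLIT and ROBO genes did not pass against sgScr. SLIT2, the main ligand here, stood at -0.15 with sgPHF8-1 and 0.11 with sgPHF8-3, and SLIT3 at -0.23 and -0.14. ROBO1, their most abundant receptor, had log2 fold changes of -0.09, with a 95% interval of -0.16 to -0.01, and -0.05, with an interval of -0.12 to 0.02. ROBO3 and ROBO4, whose gene bodies are 2.2 kb apart, had 0.09 and 0.00 with sgPHF8-1 and -0.22 and 0.08 with sgPHF8-3.

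UNC5C, a repulsive netrin receptor, could enter the test only by being high in sgScr, so its fold changes are a description and not a test. It lies on chromosome 4 (96083655 to 96470357, minus strand, GRCh37). It had 15.8, 15.9 and 11.4 normalized counts in sgScr, 7.90, 7.57 and 1.03 with sgPHF8-1, and 2.94, 3.07 and 7.40 with sgPHF8-3, and the lowest of these was 1 read. Every sgScr library was above every other library. The fitted log2 fold change was -1.37 ± 0.43 (SE) with sgPHF8-1 and -1.68 ± 0.45 with sgPHF8-3, and over the alternatives it ran from -1.74 to -0.88 and from -2.21 to -1.45. An antisense gene, UNC5C-AS1, shares 78 bases of its exons and had 20 counts in all against 75 for UNC5C.

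NTN4, a laminin-binding netrin, had 754, 719 and 747 normalized counts in sgScr, 601, 634 and 645 with sgPHF8-1, and 749, 726 and 750 with sgPHF8-3. The sgPHF8-1 libraries were below all others, and the other two groups overlapped. Its log2 fold change was -0.24 ± 0.048 with sgPHF8-1 (adjusted p = 0.000352), and with sgPHF8-3 it was 0.00 with a 95% interval of -0.09 to 0.10. DCC, the attractive netrin receptor and the most abundant of its group without a call, stood at 0.21 and 0.07.

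Compared directly, the PHF8 guides differed in 8 of the 46 members. Among all genes tested 4.74% were higher with sgPHF8-1 than with sgPHF8-3 and 5.83% lower, against 6.52% (3 genes) and 10.9% (5 genes) of the members. SEMA3C (0.21 ± 0.031, adjusted p = 4.27e-05), PLXNB2 (0.14 ± 0.032, adjusted p = 0.00625) and SEMA7A (0.11 ± 0.033, adjusted p = 0.0291) were higher with sgPHF8-1. Lower were PLXNC1 (-1.16 ± 0.31, adjusted p = 0.0171), PLXND1 (-0.47 ± 0.15, adjusted p = 0.0404), SEMA6B (-0.39 ± 0.072, adjusted p = 0.00077), SLIT2 (-0.26 ± 0.081, adjusted p = 0.0386) and NTN4 (-0.24 ± 0.049, adjusted p = 0.00159). SLIT2 had 354, 315 and 303 normalized counts in sgScr, 274, 314 and 288 with sgPHF8-1, and 342, 319 and 387 with sgPHF8-3. PLXNB2 had 3226, 3345 and 3317 in sgScr, 3210, 3161 and 3265 with sgPHF8-1, and 2991, 2851 and 2917 with sgPHF8-3. For both genes the guide groups were separate, with sgPHF8-1 lower for SLIT2 and higher for PLXNB2. The SEMA7A call was lost without sgPHF8-1 A or C or sgPHF8-3 B or C (adjusted p up to 0.131), that of SLIT2 without sgPHF8-1 A or C or sgPHF8-3 A or C (up to 0.234), and that of PLXNC1 without sgPHF8-1 A or sgPHF8-3 B or C (up to 0.104). PLXND1 lost its call without sgScr B, any one sgPHF8-1 library or sgPHF8-3 B or C (up to 0.203), and PLXNB2 without sgPHF8-3 B (up to 0.0557). For SEMA3A the difference of -0.17 did not pass (adjusted p = 0.0756). Without sgPHF8-1 B, 5 members were higher and 5 lower: PLXNA3 (0.35, adjusted p = 0.0494) and PLXNB1 (0.23, adjusted p = 0.000967) then passed as higher, SEMA3A (-0.22, adjusted p = 0.0296) as lower, and PLXND1 did not pass (-0.38, adjusted p = 0.132). PHF8 mRNA itself differed between the guides, as given above, and so did the markers MITF (-0.28, adjusted p = 0.0306), SYT1 (-0.20, adjusted p = 0.00729), ITGAM (-1.44, adjusted p = 0.0306) and LUM (0.29, adjusted p = 0.0125). The part of these in the differences between the guides was not tested.

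**Figure D4:**
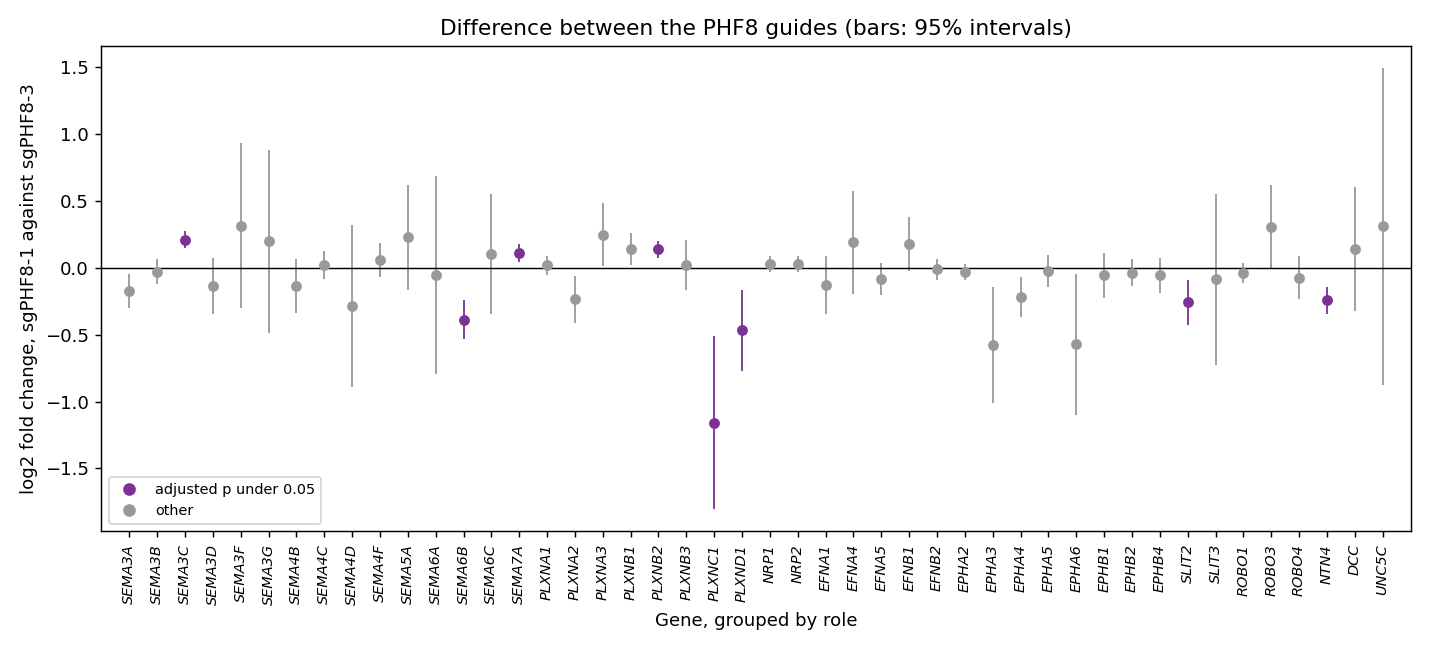
Log2 fold change of sgPHF8-1 against sgPHF8-3 (y axis) for the 46 tested genes by role, with 95% intervals and the 8 genes at an adjusted p under 0.05 in purple. PLXNC1 lies lowest at -1.16 with the widest interval of the 8, SEMA3C, SEMA7A and PLXNB2 lie above 0, and the intervals of the neuropilins are among the narrowest around 0.

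A second list held 77 other genes of the pathway, the cytoplasmic transducers and coreceptors that act with these receptors. Of 61 tested, 29 were lower and 5 higher with sgPHF8-1, and 17 lower and 1 higher with sgPHF8-3, and between the guides 7 were lower and 5 higher with sgPHF8-1. The shares of all genes were 15.7% lower and 15.2% higher, 9.78% and 9.48%, and 5.83% and 4.74% in these comparisons. The list was chosen with earlier results of these data known, so its counts are a description. The median log2 fold change of the list was -0.11 with sgPHF8-1 and -0.05 with sgPHF8-3. DAG1, the dystroglycan that binds SLIT and laminin, fell from a mean of 3816 ± 111 normalized counts in sgScr (SD, n = 3) to 2300.0 ± 70.6 with sgPHF8-1 and 2727 ± 70.9 with sgPHF8-3, log2 fold changes of -0.73 and -0.48. RND3, a small GTPase that opposes RHOA, rose from 5767 ± 235 to 8402 ± 57.7 and 7576 ± 91.7, or 0.54 and 0.39 on the log2 scale. MICAL2 and MICAL3, oxidases of actin of the family that plexins recruit, had log2 fold changes of -0.52 and -0.33 with sgPHF8-1 and -0.29 and -0.19 with sgPHF8-3. L1CAM, the adhesion molecule that pairs with NRP1 in the SEMA3A receptor, went from 4030.0 ± 206 to 2867 ± 34.8 and 2844 ± 40.9, or -0.49 and -0.50. These 5 had the smallest adjusted p values of the list when the smaller of the 2 values against sgScr was taken for each gene, and each of the 10 values passed, at an adjusted p of 0.000114 or less.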

How the data were processed

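Total RNA from 9 SKMEL-147 libraries was depleted of rRNA and made into ScriptSeq libraries. The authors aligned 50-bp paired-end reads to hg19 with STAR and deposited raw read counts per gene, and a signal table in which the authors divided those counts by DESeq2 size factors. Multiplying back gave whole reads for 100.0% of values (tolerance 0.001). HTSeq and Picard are named in the submitters' processing notes; the strand setting of counting is not given in the sources used here.

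Normalized read counts in the text are the deposited signal values. Tests used the raw counts, all 9 libraries in 1 fit, edgeR 4.0.16 quasi-likelihood (R 4.3.3, TMM, filterByExpr with a minimum count of 10, which kept 14614 genes), with Benjamini-Hochberg adjustment over all of them and a threshold of 0.05. Symbols were joined to Ensembl IDs by table and matching counts, and positions and exon lengths came from GENCODE v44 on GRCh37, the assembly of hg19. The code was tested on simulated data. Alternatives: DESeq2 1.42.0, its size factors, no filter, 6 libraries, a replicate block, an adjusted p of 0.01, the study's rule (unadjusted p under 0.05, absolute log2 fold change over 0.25), leaving out each library, and, chosen after seeing the data, the recovered reads.

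Members with an adjusted p under 0.05 and an absolute log2 fold change of at least 0.5 in any comparison were named in full, and those of smaller change, the most abundant uncalled member of each role and 5 genes of the second list with fewer values. Library values of NRP1, NRP2, SEMA3B, SEMA3C, SEMA3F, PLXNB3, EPHA2, NTN4, SLIT2 and PLXNB2, the 3 promoters and the motifs were chosen after the values were seen. The members and lists were chosen with earlier results of these data known. P-values measure the spread between libraries of the same guide, in 1 estimate shared by the 3 groups, and not the spread between guides.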

Additional observations from a re-analysis of the deposited data

Results flagged for a closer look

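The 8 genes given here stand out because their response differed between the PHF8 guides by a direct test (edgeR, sgPHF8-1 against sgPHF8-3, 3 libraries each). On the log2 scale the difference was 0.21 for SEMA3C, 0.11 for SEMA7A and 0.14 for PLXNB2, each higher with sgPHF8-1. It was -0.39 for SEMA6B, -1.16 for PLXNC1, -0.47 for PLXND1, -0.26 for SLIT2 and -0.24 for NTN4, each lower with sgPHF8-1. Only the call of SEMA6B held under every alternative. Those of SEMA7A and SLIT2 were lost under 9 and 7 of 16 alternatives, DESeq2 among them. In all 8 the libraries of the guides did not overlap, but the 8 were picked by a test of these same libraries. The guides were also separate in members without a call, such as SEMA3A, PLXNA2, EFNA5, EPHA2, EPHA3 and EPHA4. The share of all genes with separate guides was not counted.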

How the results depend on the processing

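Of the 44 calls of a member in a comparison, 18 held under every alternative run for them (9 with sgPHF8-1, 8 with sgPHF8-3 and 1, SEMA6B, between the guides), 26 were lost under at least 1, and none changed sign. Leaving out each library in turn gave 11 to 18 members lower and 2 to 3 higher with sgPHF8-1, 12 to 16 lower and 0 to 2 higher with sgPHF8-3, and 2 to 5 lower and 1 to 5 higher between the guides, and for all genes 3544 to 4642, 1877 to 3430 and 923 to 1467 calls. The study's rule gave 2205, 1393 and 835 calls over all genes, with 1 member higher with sgPHF8-1, 2 with sgPHF8-3 and 0 higher between the guides. An adjusted p of 0.01 gave 2965, 1551 and 691, with 0 members higher with sgPHF8-3 and 2 lower between the guides. DESeq2 gave 1706 calls with sgPHF8-3, where 0 members were higher, and 915 between the guides, where 2 members were lower. Without the filter 0 were higher with sgPHF8-3, and with 6 libraries 3 were lower between the guides. Beyond the stricter rules and smaller fits, the cause was not tested.

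The replicate block gave 4395, 2698 and 1481 calls over all genes, 17 members lower and 2 higher with sgPHF8-1, 14 and 1 with sgPHF8-3, and 5 and 3 between the guides; it lost SEMA5A with sgPHF8-1 and EFNA1 with sgPHF8-3. Libraries with the same letter did not deviate together (correlations of -0.083 to 0.053). What the letters stand for is not given in the sources used here, and these values cannot show whether such libraries were prepared together. The recovered reads hold the same rows as the raw counts, so their equal number of calls (4513, 2814 and 1544) was fixed in advance. It checks only that the deposited tables match. With 3 libraries a group, genes near 10 counts are measured too loosely to show moderate changes.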
